A study of Homo sapiens with 9 samples.

Results

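Lamins are the intermediate filament proteins of the nuclear lamina, the meshwork beneath the inner nuclear membrane that gives the nucleus its shape and anchors chromatin. A-type Lamins A and C are splice products of LMNA, whereas the B-type Lamins B1 and B2 come from separate genes, LMNB1 and LMNB2. B-type Lamins keep a farnesyl group that holds them at the membrane, while mature Lamin A loses it and Lamin C never carries one. Lamin A/C is known to be abundant in differentiated cells, and B-type Lamins are made in most cells. The lamin transcripts were followed here in DLD1 cells, a human colorectal cancer line, as all array probes named LMNA, LMNB1 or LMNB2 in the scanner files. These were 4 probes of 3 genes among 50238 probes with 31033 names.

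RNA came from 3 groups of 3 cultures each. Control cells received no siRNA, Lamin A/C Kd cells received siRNA against Lamin A/C, and Lamin B2 Kd cells received siRNA against Lamin B2, both at 100 nM for 48 h. No array held cells transfected with a control siRNA. In a comparison with control, the effect of transfection and that of the siRNA's target therefore cannot be told apart. A comparison between the knockdowns has transfected cells on both sides. Every culture is the same cell line, each knockdown rests on siRNA and not on a deleted gene, and RNA was taken from whole cultures.

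LMNA lies on chromosome 1, LMNB1 on chromosome 5 and LMNB2 on chromosome 19 (RefSeq, GRCh38.p14). LMNB1 and LMNB2 had 1 probe each, and LMNA had 2. Every lamin probe had 1 spot per array. The files list both LMNA probes with the RefSeq transcript of Lamin C, and whether each probe also lies in the Lamin A transcript was not analysed here. Levels were compared within a probe and never between probes.

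Values below are log2 of the processed signal minus the array median, so that 0 is the median spot of the array. All 4 lamin probes were well above background on all 9 arrays and none was saturated. The share of spots well above background ran from 65.6 to 74.1%, and array medians lay between 63.0 and 82.6 intensity units. Of the arrays, 8 shared a slide. Lamin B2 Kd replicate 3 was alone on another slide, and its signals had not been divided by the software's correction for trends across the slide. The Lamin B2 Kd results of the lamins are given with and without it.

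The labels were first checked with the targeted genes. On LMNA probe 1 the controls read 8.79, 8.79 and 8.91, and the Lamin A/C Kd arrays read 4.84, 5.14 and 5.03. On LMNA probe 2 the controls read 7.29, 7.40 and 7.48, and Lamin A/C Kd read 3.39, 3.87 and 3.52. Both probes separated the groups on every array, as 25.8% of all probes tested did with the knockdown lower. The log2 change was −3.83 (standard error 0.22, adjusted p = 0.000225) on probe 1 and −3.80 (standard error 0.27, adjusted p = 0.000313) on probe 2, by limma's moderated test with Benjamini-Hochberg adjustment over 33131 probes. The signal left was 7.04% of control (95% confidence interval 4.99 to 9.94%) on probe 1 and 7.19% (4.69 to 11%) on probe 2. These were the lowest and next-lowest changes among the probes tested. A probe was called when it differed by at least 2-fold with an unadjusted p under 0.05, and 2.32% of all probes tested were called in Lamin A/C Kd. Lower calls alone were 1.42%, and both LMNA probes were among them.

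The 2 LMNA probes also tracked each other. Their difference on the same array stayed between −0.17 and 0.23 of its control mean on the log2 scale, over all 9 arrays. The lowest value was in Lamin A/C Kd replicate 2 and the highest in Lamin B2 Kd replicate 3. In whole cultures, less LMNA in each cell and fewer cells with a full level cannot be told apart.

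LMNB2 was measured by 1 probe. The controls read 5.44, 5.51 and 5.74, and the Lamin B2 Kd arrays read 3.1, 3.48 and 3.15. The groups lay apart on every array, as they did, with all knockdown arrays lower, for 26% of all probes. LMNB2 fell by 2.32 on the log2 scale (adjusted p = 0.000523 by limma over 33535 probes, standard error 0.14), which leaves 20.0% of the control signal (95% confidence interval 16.0 to 25.0%). It ranked 7 from the lowest change. In Lamin B2 Kd 1.98% of probes were called, 1.19% as lower. Without Lamin B2 Kd replicate 3 the change was −2.28.

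Set directly against each other, the 2 knockdowns differed at both targets. LMNA in Lamin A/C Kd was lower than in Lamin B2 Kd by −3.54 (adjusted p = 0.000132) and −3.42 (adjusted p = 0.000244) on its 2 probes, and LMNB2 was higher by 1.96 (adjusted p = 0.000206), by limma. Leaving out Lamin B2 Kd replicate 3 gave −3.83, −3.78 and 1.91. In this comparison 4.07% of probes were called.

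**Figure D1:**
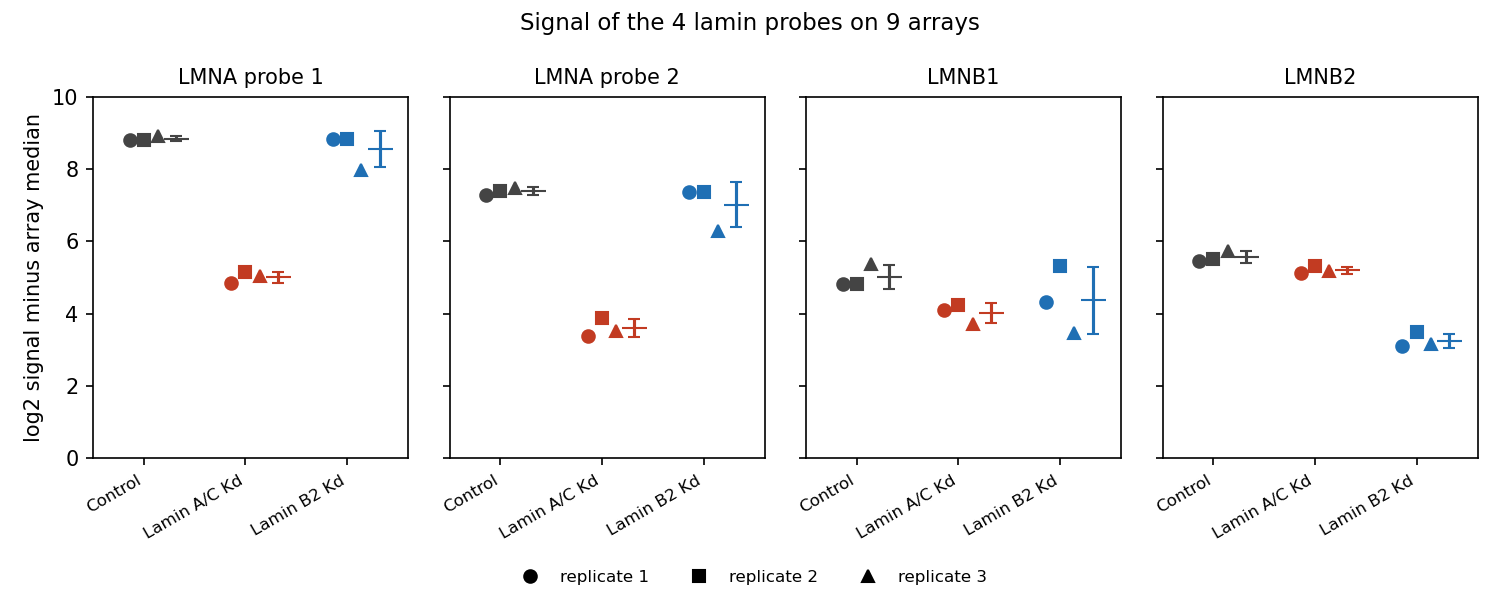
Signal of each lamin probe (log2 of processed signal minus the array median, vertical axis) in the 3 groups, with 1 point per array, the shape giving the replicate, and a bar for the mean ± SD (n = 3). LMNA dropped from about 8.83 to 5.0 on probe 1 in Lamin A/C Kd and LMNB2 from 5.56 to 3.24 upon Lamin B2 Kd, whereas LMNB1 was spread from 3.46 to 5.32 within Lamin B2 Kd.

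The next question was whether either siRNA touched the Lamin it was not designed against. For LMNA in Lamin B2 Kd, probe 1 read 8.83, 8.83 and 7.97, and probe 2 read 7.37, 7.37 and 6.29. Replicates 1 and 2 lay among the controls on both probes and replicate 3 lay below them. The log2 difference from control was −0.29 (95% confidence interval −0.79 to 0.21, adjusted p = 0.430) on probe 1 and −0.38 (−1.0 to 0.24, adjusted p = 0.405) on probe 2, by limma. Neither probe was called. Without replicate 3 the differences were 0.00 and −0.02. In that array LMNA was 0.86 and 1.08 below the mean of replicates 1 and 2, and the median over 33657 probes was also lower, by 0.24. Lower values than these were found for 8.16% and 4.68% of probes. Dividing that array by its trend factor, as on the other 8, left the differences at −0.31 and −0.40. The slide and the array cannot be told apart, since only 1 array was on that slide.

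For LMNB2 in Lamin A/C Kd the arrays read 5.11, 5.31 and 5.18, all below the lowest control at 5.44. The log2 difference was −0.36 (95% confidence interval −0.68 to −0.04, unadjusted p = 0.0309, adjusted p = 0.155 by limma), or 77.8% of control. It was not called, being 1.29-fold. All 3 arrays lay below every control for 25.8% of all probes tested, and 15.8% of probes were lower with an unadjusted p under 0.05.

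The separation of LMNB2 in Lamin A/C Kd was lost when the trend correction was left out, through a single control spot. The software divides each spot by a factor for its place on the slide. For the LMNB2 spot this factor was 0.708 in control replicate 2, against 0.963 and 0.949 in the other controls and 0.960, 0.979 and 0.958 in Lamin A/C Kd. Before that division the controls read 5.38, 5.02 and 5.67, and Lamin A/C Kd read 5.05, 5.28 and 5.12. The groups then overlapped, with control replicate 2 below every Lamin A/C Kd array. The difference became −0.20 (unadjusted p = 0.290, adjusted p = 0.569 by limma). The other controls lay above every Lamin A/C Kd array with and without the division. With the division kept and control replicate 2 left out, the difference was −0.39 (unadjusted p = 0.0534, adjusted p = 0.269 by limma). The change of LMNB2 in Lamin B2 Kd was −2.16 before the division and was called either way.

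**Figure D2:**
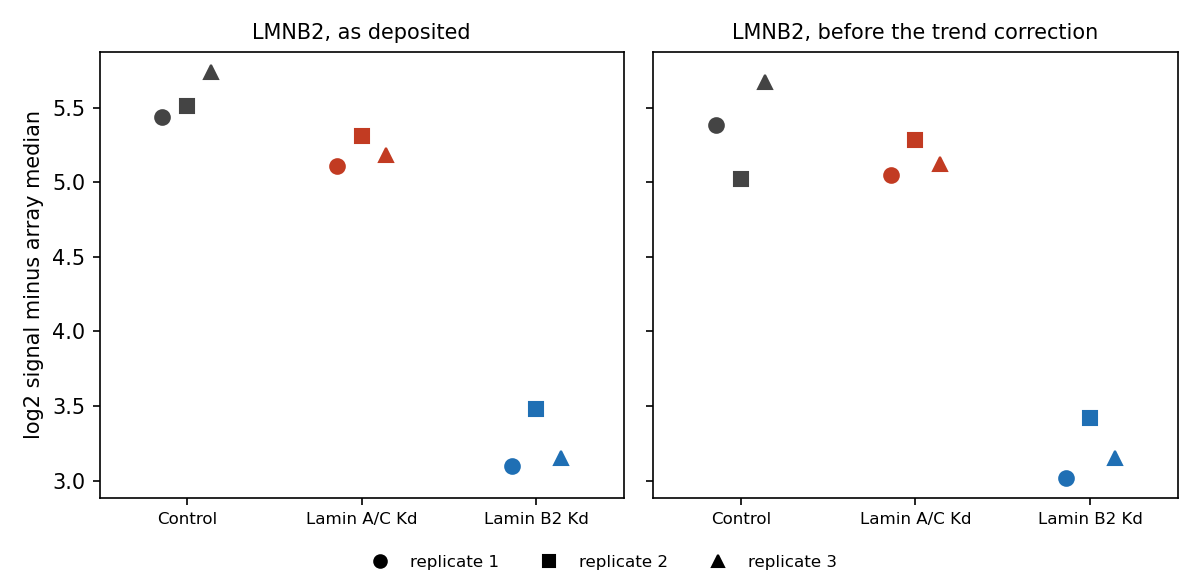
LMNB2 signal (log2 minus the array median, vertical axis not starting at 0) in the 3 groups, with 1 point per array, as deposited (left) and before the trend correction (right). Control replicate 2 moved from 5.51 to 5.02, so that controls and Lamin A/C Kd overlapped on the right, while the Lamin B2 Kd arrays stayed at or below 3.48.

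LMNB1 was the target of neither siRNA. Its controls read 4.83, 4.81 and 5.38. Lamin A/C Kd arrays read 4.09, 4.24 and 3.72, and Lamin B2 Kd arrays read 4.31, 5.32 and 3.46. Lamin A/C Kd lay below all controls, as for 25.8% of all probes, but Lamin B2 Kd overlapped them, with replicate 2 near the highest control and replicates 1 and 3 below the lowest. By group mean, control (5.01 ± 0.32, SD, n = 3) was followed by Lamin B2 Kd (4.37 ± 0.93, SD, n = 3) and Lamin A/C Kd (4.02 ± 0.27, SD, n = 3), and neither neighbouring pair was separated beyond its spread.

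In Lamin A/C Kd, LMNB1 stood at 50.5% of control (95% confidence interval 27.0 to 94.3%), a log2 difference of −0.99 (standard error 0.40, unadjusted p = 0.0352, adjusted p = 0.168 by limma). At 1.98-fold it just missed the 2-fold criterion. The wide interval came with the Lamin B2 Kd arrays, which share one estimate of the spread with the others. In a fit of control and Lamin A/C Kd alone the same difference had an unadjusted p of 0.00145 and an adjusted p of 0.0152. Without Lamin B2 Kd replicate 2 the adjusted p was 0.0483, and without replicate 3 it was 0.0394. Leaving out control replicate 3, the highest control, gave −0.80 (adjusted p = 0.421). The difference passed the call when replicate 2 of the Lamin A/C knockdown (−1.10) or either of the lower controls (−1.07 and −1.08) was left out, with adjusted p values of 0.247, 0.271 and 0.256.

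In Lamin B2 Kd the LMNB1 difference was −0.64 (95% confidence interval −1.55 to 0.27, adjusted p = 0.348 by limma), and single arrays decided it. It was −1.12 (adjusted p = 0.0574), and past the call, without replicate 2, and −0.19 (adjusted p = 0.793) without replicate 3. The 3 Lamin B2 Kd arrays spanned 3.63-fold for LMNB1, wider than 97.1% of 33657 probes in that group, whose median span was 0.50 on the log2 scale. The LMNB2 span in the same arrays was 0.38. Between the knockdowns LMNB1 differed by −0.35 (95% confidence interval −1.25 to 0.55, adjusted p = 0.599), which turned to 0.13 without Lamin B2 Kd replicate 2 and was −0.80 without replicate 3.

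With the 6 siRNA arrays set against the 3 controls, the LMNB1 difference was −0.81 (standard error 0.35, unadjusted p = 0.0442, adjusted p = 0.218 by limma), or 56.9% of control. It was not called, and 0.939% of probes were. The groups overlapped, with 5 of 6 siRNA arrays below the lowest control, and how many of all probes lie so was not counted. Both knockdowns share the controls here. Without Lamin B2 Kd replicate 2 the difference was −1.05 (adjusted p = 0.0487) and passed the call. Without replicate 3 it was −0.59 (adjusted p = 0.192), and without control replicate 3 it was −0.63 (adjusted p = 0.554).

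No lamin probe was called higher in either knockdown, beside 0.89% of all probes in Lamin A/C Kd and 0.787% upon Lamin B2 Kd. The upper ends of the 95% confidence intervals, as percent of control, were 94.3% for LMNB1 and 97.2% for LMNB2 in Lamin A/C Kd. In Lamin B2 Kd they were 116% and 118% for the LMNA probes and 120% for LMNB1. In the fit as reported, a rise beyond those limits was outside the interval, at the precision of 3 arrays per group. Without control replicate 3, LMNB1 in Lamin A/C Kd was at −0.80 (unadjusted p = 0.115 by limma) and LMNB2 at −0.27 (unadjusted p = 0.121). Before the trend correction LMNB2 was at −0.20 there (unadjusted p = 0.290). The 95% confidence intervals of those fits include no change, so they reach above control.

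**Figure D3:**
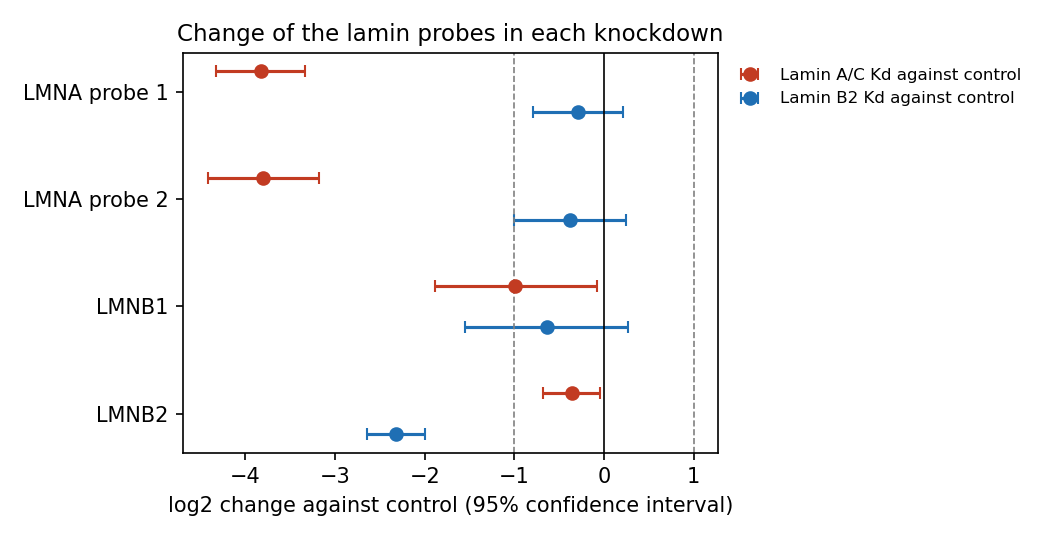
Log2 change against control (horizontal axis) of each lamin probe in Lamin A/C Kd (red) and Lamin B2 Kd (blue), with the 95% confidence interval of limma's moderated test as the bar and dashed lines at 2-fold. Both LMNA probes sit near −3.8 in Lamin A/C Kd and LMNB2 at −2.32 upon Lamin B2 Kd, and the other intervals end at or below 0.27.

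**Figure D4:**
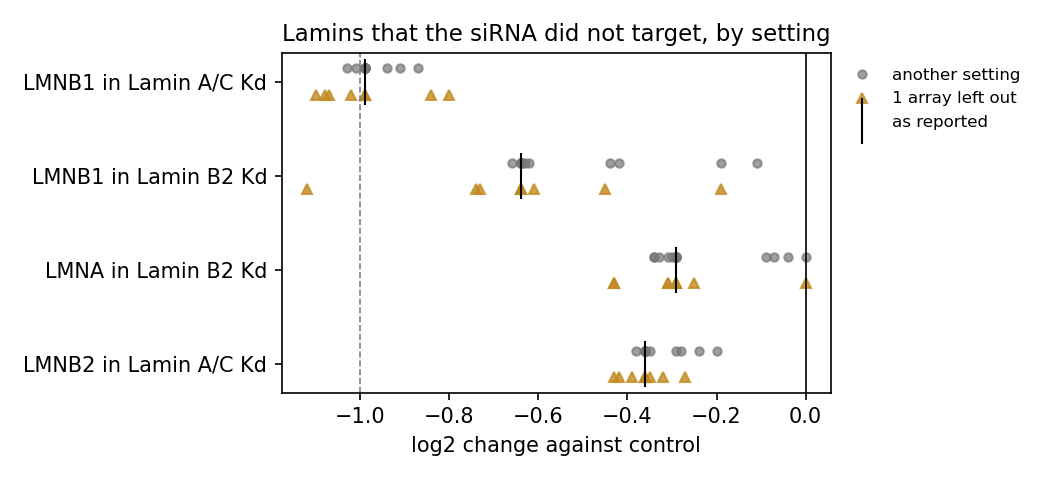
Log2 change against control (horizontal axis) of the lamins outside each siRNA's target, with the reported value as a black line, other processing settings as grey points and fits with 1 array left out as triangles; the dashed line marks 2-fold. LMNB1 in Lamin B2 Kd ranged from −1.12 to −0.11 and LMNA probe 1 in Lamin B2 Kd from −0.43 to 0.00. LMNA probe 2, not shown, ranged from −0.56 to −0.02 there.

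The balance between lamin transcripts was then read within each array, where the array's own scaling cancels. Only its shift between groups carries meaning, since probes differ in brightness. For LMNA probe 1 minus LMNB2, the controls read 3.35, 3.28 and 3.17, Lamin A/C Kd read −0.27, −0.17 and −0.15, and Lamin B2 Kd read 5.73, 5.35 and 4.82. The 3 groups lay apart, with the controls in between. The shift was −3.47 in Lamin A/C Kd, an 11-fold move towards LMNB2, and 2.03 upon Lamin B2 Kd, a 4.10-fold move towards LMNA. Between the knockdowns the balance differed by −5.50, or 45.3-fold. The last 2 values were 2.28 and −5.74 without Lamin B2 Kd replicate 3.

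For LMNA minus LMNB1, the controls read 3.95, 3.99 and 3.54 and Lamin A/C Kd read 0.75, 0.89 and 1.31, a shift of −2.84. Lamin B2 Kd read 4.52, 3.50 and 4.51 and overlapped the controls (shift 0.35, or 0.19 without replicate 3). The Lamin A/C Kd shift was 7.17-fold towards LMNB1. In Lamin B2 Kd replicate 3, where both messages were low, this balance equalled that of replicate 1 within 0.01.

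For LMNB1 minus LMNB2, the balance of the B-type messages, the controls read −0.60, −0.70 and −0.37. Lamin A/C Kd read −1.02, −1.07 and −1.46, all lower, and Lamin B2 Kd read 1.21, 1.85 and 0.32, all higher. The shifts were −0.62 (1.54-fold) and 1.68 (3.21-fold), the latter 2.09 without Lamin B2 Kd replicate 3. Over the 9 comparisons of 3 pairs, 8 had no overlap and an exact permutation p of 0.10 (two-sided, adjusted p = 0.1125), which is the smallest that 3 against 3 arrays can give. All but LMNB1 minus LMNB2 in Lamin A/C Kd against control hold a lamin targeted in a group compared. Their separation therefore restates the knockdown of that lamin. How often other probe pairs lie apart was not counted. For LMNA minus LMNB1 in Lamin B2 Kd the exact permutation p was 0.40. No such test could pass 0.05 in this design.

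**Figure D5:**
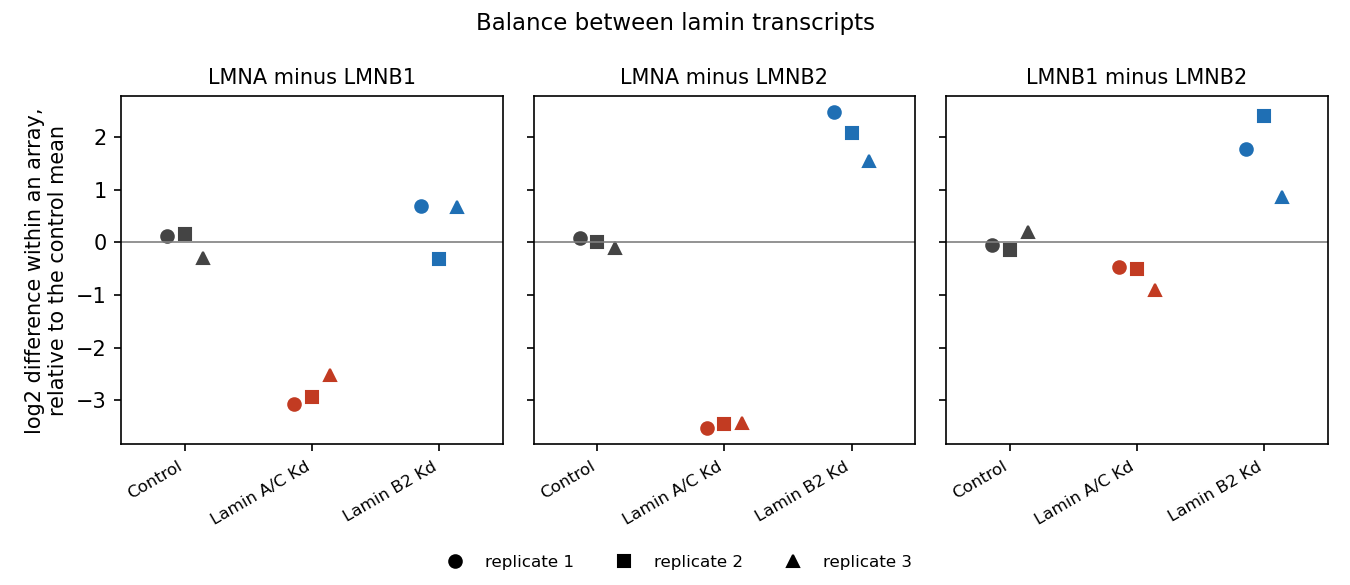
Log2 difference between the brightest probes of 2 lamin genes on the same array, relative to the control mean (vertical axis), in the 3 groups with 1 point per array. LMNA minus LMNB2 lies between −3.53 and −3.42 in Lamin A/C Kd and between 1.55 and 2.47 upon Lamin B2 Kd, and LMNA minus LMNB1 in Lamin B2 Kd overlaps the controls.

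Lamins act with proteins that mature them, tie them to the membrane and chromatin, link them to the cytoskeleton or take the lamina apart in mitosis. Of 25 such genes, 23 had a probe that could be tested. The exceptions were SYNE3 and PRKCB. Each gene is counted by its brightest probe, while the shares over all probes take every probe tested. In Lamin A/C Kd 1 of the 23 was called lower and none higher, beside 2.32% of all probes called, and the median log2 difference was −0.33 against −0.05 over all probes. Of the 23, 11 were lower with an unadjusted p under 0.05, beside 15.8% of all probes. In Lamin B2 Kd none was called by limma, beside 1.98% of all probes, and 6 were lower with an unadjusted p under 0.05, beside 19.3% of all probes. The median there was −0.23 against −0.14 over all probes, and 23 of 23 lay below 0. That count rests on the scaling, since with a shift by the 75th percentile 14 of 23 lay below 0 and the median over all probes was 0.06 in place of −0.14. It was 19 of 23, with a median of −0.14, without Lamin B2 Kd replicate 3. How many of all probes lay below 0 was not counted.

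The gene called in Lamin A/C Kd was EMD, which encodes emerin, an inner nuclear membrane protein that binds Lamin A. Its controls read 4.80, 4.88 and 5.0, Lamin A/C Kd read 3.62, 3.95 and 3.82, and Lamin B2 Kd read 3.87, 4.75 and 3.38. Every siRNA array was below every control. Taken by knockdown, 25.8% of all probes in Lamin A/C Kd and 26% upon Lamin B2 Kd were so, and the share for both together was not counted. Within Lamin B2 Kd the order of the arrays was that of LMNB1. How many probes share that order was not counted. Over all probes, the median of replicate 3 minus the mean of replicates 1 and 2 was −0.24. By limma, EMD fell by 1.09 (adjusted p = 0.0474, standard error 0.29) in the Lamin A/C knockdown, and over the alternatives its adjusted p ran from 0.00227 to 0.158. In Lamin B2 Kd the difference was −0.89 (adjusted p = 0.118), with −1.26 (adjusted p = 0.0132) when replicate 2 was left out and −0.58 (adjusted p = 0.220) when replicate 3 was. With quantile normalization EMD in Lamin A/C Kd was at −0.98, short of 2-fold.

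By class, the 9 genes of the inner nuclear membrane and chromatin were all below 0 in Lamin A/C Kd. Their median was −0.39 against −0.05 over all probes, and 8 had an unadjusted p under 0.05, beside 15.8% of all probes lower. They were also all below 0 upon Lamin B2 Kd, with a median of −0.31 against −0.14 over all probes. Of these, 3 had an unadjusted p under 0.05, beside 19.3% of all probes lower. With a 75th percentile shift or quantile normalization 7 of the 9 were below 0 there, with medians of −0.11 and −0.12. In Lamin A/C Kd, with a 75th percentile shift or quantile normalization, 8 of the 9 were below 0. The share of all probes below 0 was not counted. Under the main scaling, 9 of the 9 lay below the median over all probes in Lamin A/C Kd and 8 upon Lamin B2 Kd. The 9 include TMPO (LAP2, at −0.61 in Lamin A/C Kd), LBR, the lamin B receptor (−0.33), and BANF1, the chromatin-bridging factor BAF (−0.39). By their brightest probes, the 6 maturation genes had a median of −0.05 in Lamin A/C Kd and none had an unadjusted p under 0.05. Among them ZMPSTE24, the protease that cleaves prelamin A, was at −0.14, and the farnesyltransferase subunits FNTA and FNTB were at 0.04 and −0.22. The dimmer FNTB probe was at −0.33 (unadjusted p = 0.0327, adjusted p = 0.161 by limma). Probes of ICMT, the carboxyl methyltransferase of farnesylated proteins, disagreed. The brighter was at −0.16 and the dimmer at −1.49 (unadjusted p = 0.00643, adjusted p = 0.0615 by limma). The dimmer probe passed the call, but only the brighter entered the counts.

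In the LINC complex, which joins lamina and cytoskeleton, the class median in Lamin A/C Kd was 0.03, and 2 of 5 genes lay below 0. SUN1 was at −0.58 there (adjusted p = 0.0134 by limma), SUN2 at −0.89 (adjusted p = 0.333), SYNE2 at 0.03, SYNE4 at 0.04 and SYNE1 at 0.24. Of the mitotic kinases that phosphorylate Lamins, CDK1 was at −0.56 (adjusted p = 0.0171) in Lamin A/C Kd and −0.19 upon Lamin B2 Kd. PRKCA was at −0.06 in Lamin A/C Kd and −0.77 (adjusted p = 0.0330) in Lamin B2 Kd, where its arrays read 2.41, 2.66 and 2.07 against 3.09, 3.13 and 3.22 in controls. It was at −0.61 (adjusted p = 0.0274 by limma) without Lamin B2 Kd replicate 3. The dimmer probe of SUN1 was at 0.10 in Lamin A/C Kd, and that of PRKCA was at −0.19 upon Lamin B2 Kd. None of SUN1, CDK1 and PRKCA, the partner genes beside EMD with an adjusted p under 0.05, reached 2-fold, and they were picked out after their values were seen. Whether the knockdowns differ at these genes was not tested.

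Some messages followed a lamin closely over the 9 arrays. Among 22189 gene names, TMEM14B (Pearson's r = 0.998), TRAM1, a translocation protein of the endoplasmic reticulum (0.998), and C20orf3 (0.995) were most like LMNA. Their log2 differences from control were −2.54, −1.24 and −1.80 in Lamin A/C Kd and −0.19, −0.11 and −0.22 upon Lamin B2 Kd. For LMNB2 they were UBAC1 (0.991), AK124396 (0.991) and COTL1, an actin-binding protein (0.988), at −1.99, −1.24 and −1.05 upon Lamin B2 Kd and −0.10, −0.26 and −0.12 in Lamin A/C Kd. COTL1 was at −0.96, short of 2-fold, without Lamin B2 Kd replicate 3. AK024035 (0.977), CARD10 (0.971) and SPTBN5, a spectrin (0.971), were most like LMNB1. These had differences between −0.81 and −0.30 over both knockdowns. All 3 had the Lamin B2 Kd arrays in the order of LMNB1, with replicate 2 highest and replicate 3 lowest. The 9 arrays fall into 3 groups and the genes were chosen by r, so these values are a description.

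The control genes stood close to their control levels. ACTB differed from control by 0.05 and 0.03 and GAPDH by 0.17 and 0.02 (Lamin A/C first, then B2), with adjusted p values of 0.398 to 0.910 by limma. Of the 7 colon epithelial markers, all were well above background on all 9 arrays, with EPCAM under its older name TACSTD1 at 9.81 to 10.18. The level of KRT20 was −1.84 to −0.38 and that of VIL1 was 1.8 to 3.5. Against control, the brighter of the 2 VIL1 probes was at −0.58 in Lamin A/C Kd (adjusted p = 0.127 by limma). In Lamin B2 Kd it was at −1.06 (adjusted p = 0.0340 by limma) and −0.87 (adjusted p = 0.0485) without replicate 3. The other 6 markers lay between −0.18 and 0.55 there, with adjusted p values of 0.263 to 0.979. Among markers of other cells, PTPRC and COL1A1 were well above background on 2 arrays each. PECAM1 and VIM were so on all 9, at levels no higher than 0.01. The colon marker KRT20 also stayed below that level, so the flag did not separate the marker sets.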

How the data were processed

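Total RNA of 9 DLD1 cultures was labeled with Cy3 and hybridized to single-color Agilent arrays, 1 per culture. The authors deposited the Feature Extraction output (version 10.7.3.1 in the file headers, 10.5 in the submitters' processing notes), in which each intensity has its background subtracted and, on 8 arrays, is divided by a trend factor that the deposited files give as a ratio. A deposited table of normalized log2 values (array median subtracted, rows centered on their medians; 20266 of 50238 rows blank) joins both LMNA probes in 1 row and served as an alternative. Its Lamin B2 Kd set numbers go against the scanner values, so those columns were used by group. A flag in the deposited files gives other properties of each spot, such as well above background.

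Log2 processed signal minus the array's 50th percentile was fitted over all 9 arrays with limma 3.58.1 (R 4.3.3). Tests were limited to probes flagged well above background throughout at least 1 of the groups compared. Adjusted p values are Benjamini-Hochberg over all probes tested. The study's labels call the cultures biological replicates, and 3 per group limits the precision.

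The lamin genes, the partner genes and the tests were chosen with earlier results of these data known. The rule for named genes took the lamins, ACTB, GAPDH, partner genes called in a knockdown, and for each lamin the 3 genes with the highest Pearson's r. The other partner genes named, and VIL1 among the listed cell type markers, were chosen after their values were seen. The brightest probe stands for a gene. The steps were tested on simulated data. Alternatives were other scalings and background corrections, detection filters, call rules, fits with a replicate or slide block, array weights, no moderation, and each array left out. Signals before the trend correction, and Lamin B2 Kd replicate 3 divided by its own factor, were added after seeing the data. Figures were drawn with matplotlib. Probe sequences are not reported here.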

Additional observations from a re-analysis of the deposited data

How the results depend on the processing

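LMNA in Lamin A/C Kd and LMNB2 in Lamin B2 Kd were called under every alternative run, between −3.94 and −3.67 and between −2.44 and −2.07 on the log2 scale. LMNA in Lamin B2 Kd and LMNB2 in Lamin A/C Kd were called under none. The LMNB1 difference in Lamin A/C Kd passed the call with normexp (−1.03), in the authors' table (−1.01) and under a 1.5-fold criterion (−0.99), as did the pooled siRNA arrays under the last (−0.81). It also passed without replicate 2 of the Lamin A/C knockdown (−1.10) and without replicate 1 or 2 of the controls (−1.07 and −1.08), and the pooled difference and that in Lamin B2 Kd passed without Lamin B2 Kd replicate 2 (−1.05 and −1.12). With 1 array left out it ran from −1.10 to −0.80 in Lamin A/C Kd, from −1.12 to −0.19 in Lamin B2 Kd, from −0.80 to 0.13 between the knockdowns and from −1.05 to −0.59 for the pooled siRNA arrays. An array group reduced to 2 is assumed to vary like the others.

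Counts of called probes moved most with the rule. In Lamin A/C Kd, Lamin B2 Kd, the knockdowns against each other and the pooled siRNA arrays they were 767, 664, 1350 and 317. They were 324, 159, 391 and 97 with normexp, and 3030, 1381, 5160 and 957 with the adjusted p alone. At 1.5-fold they were 3263, 2984, 4824 and 1718. With 2-fold and the adjusted p, Lamin B2 Kd had 319 and the pooled arrays 141. With no detection filter Lamin B2 Kd had 1532, the knockdowns against each other 2144 and the pooled arrays 593, and with detection on all 9 arrays Lamin B2 Kd had 413 and the pooled arrays 181. Array weights gave Lamin B2 Kd 388 and a slide block 398. With 1 array left out, the counts ran from 463 to 1505 in Lamin B2 Kd, 1214 to 2211 between the knockdowns and 281 to 507 for the pooled arrays. Partner genes called lower were 0 with quantile normalization in Lamin A/C Kd and 0 to 2 with 1 array left out in Lamin B2 Kd. The LMNA minus LMNB2 shift in Lamin A/C Kd was −3.61 with normexp and −3.64 before the trend correction. The cause of these moves was not tested.

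With the replicate block, LMNB1 in Lamin A/C Kd was at −0.99 (adjusted p = 0.186 by limma) and 785, 682, 1371 and 329 probes were called, and no call of a lamin probe changed. Same-numbered arrays correlated between −0.09 and 0.15, and 0 of 9 arrays matched best with their own number in both other groups, so the numbers were not used as pairs. The check and the block used the numbers of the sample titles. For Lamin B2 Kd these go against the numbers of the authors' normalized values, so pairing with that group cannot be settled here. Among the genes that follow LMNB2, COTL1 fell short of 2-fold in 5 of 21 alternatives.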
